A study of Mus musculus with 30 samples.

Results

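Rgs4 (regulator of G-protein signaling 4) was followed by every spot of a mouse cDNA array that carries its name. There were 2 such spots among 22830 gene spots, and 1 of them, spot 16914, lay above the intensity limit in both channels of every array. The second, spot 18914, did so on 1 of 30 arrays, so the values below are those of spot 16914. Rgs4 was singled out because its ratio had already been seen to be low at every time point in these same arrays. Its CRH response is therefore given as a description, without a test.

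The RNA came from AtT-20 cells, a mouse pituitary tumour line of corticotrope type whose CRH receptor is CRHR1. Serum was withdrawn from all dishes, and the treated ones then received 100 nM human/rat CRH for 1, 3, 6, 12 or 24 h, while untreated dishes were harvested at the same times. Amplified RNA of both was hybridised to 1 array, and 6 arrays were made per time point, 3 of them carrying treated RNA in Cy3 and 3 carrying it in Cy5. The 6 arrays were technical replicates, so their spread is that of labelling, hybridisation and scanning and not of separate cultures. Every log2 ratio is treated over untreated, after a loess correction within each print-tip block.

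RGS proteins bind active Gα subunits and speed the hydrolysis of GTP, which ends the signal of a receptor sooner. RGS4 acts on the Gi/o and Gq classes and not on Gs, the class through which CRHR1 raises cAMP. It is best known from the brain and heart, and its protein is short-lived because its N-terminal cysteine marks it for the ubiquitin ligases of the N-degron pathway.

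In RefSeq (GRCm38.p6) Rgs4 lies on the minus strand of chromosome 1 from 169741477 to 169747642, with Rgs5 ending 45.7 kb below it. Of the 11 RGS genes with a spot on the array, 6 are on chromosome 1. The 250 bases before the start of Rgs4 are shown because CRH acts on transcription largely through cAMP and CREB, which binds the cAMP response element, and those before the start of Rgs2 because, of the spots with a gene name, 1 of Rgs2 had the smallest root mean square difference from Rgs4, a measure that takes in the mean (by correlation other spots were closer). Capitals mark the shorter cAMP response element, TGACG, on either strand (CGTCA when read on the opposite strand), and the TATA motif TATAAA.
Rgs4, chr1:169747643-169747892, minus strand: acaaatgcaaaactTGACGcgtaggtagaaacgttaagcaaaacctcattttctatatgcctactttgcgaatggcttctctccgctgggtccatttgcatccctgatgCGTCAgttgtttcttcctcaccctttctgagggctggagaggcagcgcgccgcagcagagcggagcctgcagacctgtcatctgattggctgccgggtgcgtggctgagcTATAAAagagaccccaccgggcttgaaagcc
Rgs2, chr1:144004150-144004399, minus strand: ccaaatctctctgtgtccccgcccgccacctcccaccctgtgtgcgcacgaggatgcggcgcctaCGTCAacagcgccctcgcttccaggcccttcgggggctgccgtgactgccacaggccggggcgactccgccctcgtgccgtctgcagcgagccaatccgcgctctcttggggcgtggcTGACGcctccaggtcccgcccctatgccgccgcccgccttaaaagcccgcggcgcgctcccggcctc

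In the Rgs4 window TGACG began 236 bases before the start and CGTCA 141 bases before it, and TATAAA 31 bases before it. The Rgs2 window held CGTCA at 185 and TGACG at 67 bases. Among 32851 promoter windows of the same length 17.8% held TGACG on either strand, and 2.72% held it in both orientations. The full palindrome TGACGTCA contains TGACG in both orientations, so every window with it is counted in the 2.72%. It stood in 1.55% of the windows and in neither the Rgs4 nor the Rgs2 window, each of which holds 2 separate sites. The NBRE, AAAGGTCA, which NUR77 binds, stood in 1.34% of them and in neither of these, while TATAAA stood in 12.4%. For 8 of the 11 RGS genes a window was at hand, 11 windows in all, and TGACG was found in 3 of these, those of Rgs4 and Rgs2 and 1 of Rgs12. A match of letters is a description of the sequence and does not show that a factor binds there.

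Rgs4 was lower in the CRH-treated RNA on each of the 30 arrays. The mean log2 ratio over the 5 time points was -0.47, with an SD of 0.18 between time points and a limma standard error of 0.07, which is 72.4% of the untreated level or 1.38-fold lower. The RNA was that of whole dishes, so less Rgs4 RNA per cell and fewer cells holding it cannot be told apart. Over single arrays the ratio ranged from -1.06 to -0.01. Of the 14375 spots above the intensity limit, 0.00696% were below 0 on all 30 arrays, which is the Rgs4 spot alone, and 0% were above 0 on all 30. No other spot was below 0 on more than 27 arrays. A mean below 0 at all 5 time points was found in 530 spots or 3.69%. The mean of Rgs4 was also the lowest of all spots. The next was -0.40, at a spot of Neurod1, a transcription factor of corticotropes. These places in the order are what the gene was chosen on.

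**Figure D1:**
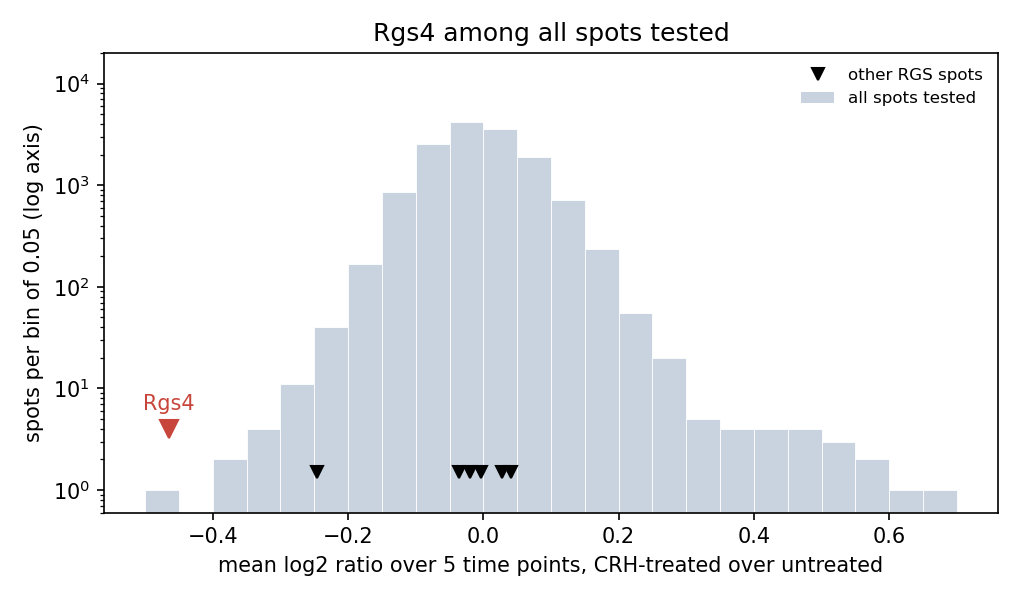
Number of spots (log axis, bins of 0.05) by the mean ratio (log2, CRH-treated/untreated) across the 5 time points, for the 14375 spots tested. The red triangle marks Rgs4 at -0.47, left of every other spot, and the black triangles mark the 6 other RGS spots, between -0.25 and 0.04.

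At 1 h the ratios of replicates 1 to 6 were -0.93, -0.57, -1.04, -0.56, -0.54 and -0.72. Their mean was -0.73 ± 0.21 (SD, n = 6), or 60.5% of the untreated level. All 6 arrays lay below -0.54, and arrays of either dye orientation were among them. This was the time point at which Rgs4 met the size rule, a mean change of at least 1.5-fold (0.585 on the log2 scale) with the same sign on 6 of 6 arrays. At 1 h 0.0974% of all spots were lower by that rule, and at any time point 0.174% were lower and 0.403% higher.

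At 3 h replicates 1 to 6 gave -0.23, -0.20, -0.37, -0.24, -0.47 and -0.39, a mean of -0.32 ± 0.11 (SD, n = 6) and 80.2% of the untreated level. The 3 h arrays lay closer together than those of any other time point, and none reached the range of the 1 h arrays.

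At 6 h the ratios were -0.01, -0.08, -0.05, -0.43, -0.48 and -0.60, with a mean of -0.28 ± 0.26 (SD, n = 6) or 82.5% of the untreated level. The first 3 of these, with the CRH-treated RNA in Cy3, lay close to 0 and the other 3, with it in Cy5, were well below.

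At 12 h they were -0.13, -0.31, -0.26, -1.06, -0.91 and -0.61, with a mean of -0.55 ± 0.38 (SD, n = 6) or 68.4% of the untreated level. The spread was the widest of the 5 time points, and here too the orientations were apart. The 12 h arrays were quantified on 2 days. With the CRH-treated RNA in Cy5, replicate 4 of the earlier day gave -1.06 and replicates 5 and 6 of the later day gave -0.91 and -0.61.

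At 24 h the ratios were -0.24, -0.32, -0.14, -0.67, -0.58 and -0.79, with a mean of -0.46 ± 0.26 (SD, n = 6) or 72.9% of the untreated level. Again the Cy3 arrays were the higher ones and no value of one orientation reached the other.

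**Figure D2:**
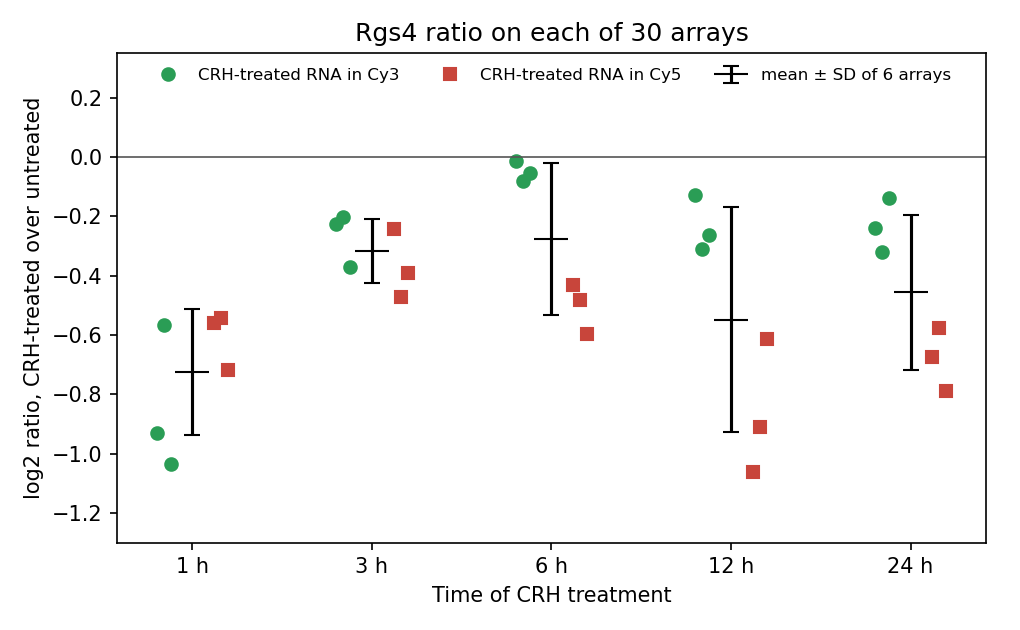
Ratio of Rgs4 (log2, CRH-treated/untreated) on each array by hours of treatment, with green circles for CRH-treated RNA in Cy3, red squares for CRH-treated RNA in Cy5 and black bars for the mean ± SD of the 6 arrays. All 30 points lie below 0, from -1.06 at 12 h to -0.01 at 6 h, and at 6, 12 and 24 h the green points all lie above the red ones.

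Ordered by the mean, 1 h was the lowest, followed by 12, 24, 3 and 6 h. Neighbours in this order differed by less than the larger SD of the pair, and the ranges of the arrays overlapped for each neighbouring pair. The change of Rgs4 over time was not tested, since the spread between time points was part of what the gene was chosen on. The time points were also quantified on different days (3 and 6 h shared a day, and 2 of the 12 h arrays shared that of 24 h), so time and day cannot be told apart for most of these steps.

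The size of the ratio depended on which dye carried the CRH-treated RNA, and it did so differently at different times. With CRH-treated RNA in Cy3 the means at 1, 3, 6, 12 and 24 h were -0.84, -0.27, -0.05, -0.23 and -0.23. With it in Cy5 they were -0.61, -0.37, -0.51, -0.86 and -0.68. The Cy3 mean less the Cy5 mean was thus -0.24 at 1 h and 0.10, 0.46, 0.63 and 0.45 at the later times. Over the 5 time points the mean was -0.33 in Cy3 and -0.60 in Cy5, below 0 in both. The interaction of time and dye orientation had p = 0.000135 in the linear model (n = 30 arrays) and 0.00546 after Benjamini-Hochberg adjustment over all spots. An interaction at p under 0.01 was found in 14.8% of all spots, and these p-values rest on repeated hybridisation of 1 pair of extracts per time point. The study removed spots below this limit as dye-dependent, and by the value found here the Rgs4 spot lies below it. The study removed fewer spots than were called here and does not name Rgs4. Whether it removed this spot is therefore not known.

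Such dye differences were large for many spots. The median size of the difference between orientations over all spots ranged from 0.30 at 3 h to 0.39 at 12 h, and that of Rgs4 was larger than in 37.1%, 18.5%, 66%, 72.5% and 59.1% of spots in order of time. The orientations of Rgs4 did not overlap at 6, 12 and 24 h, as was so for 41.7%, 45.2% and 43.7% of all spots. Across spots, the mean ratios of both orientations correlated negatively within each time point, at r from -0.63 to -0.29. The direction was kept as the labels and the study's methods state the dyes. Both orientations weigh equally in every mean given here, with 3 arrays each. A dye difference cancels in such a mean only where it is equal in size and opposite in sign in both orientations. Whether that was so for Rgs4 was not tested.

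**Figure D3:**
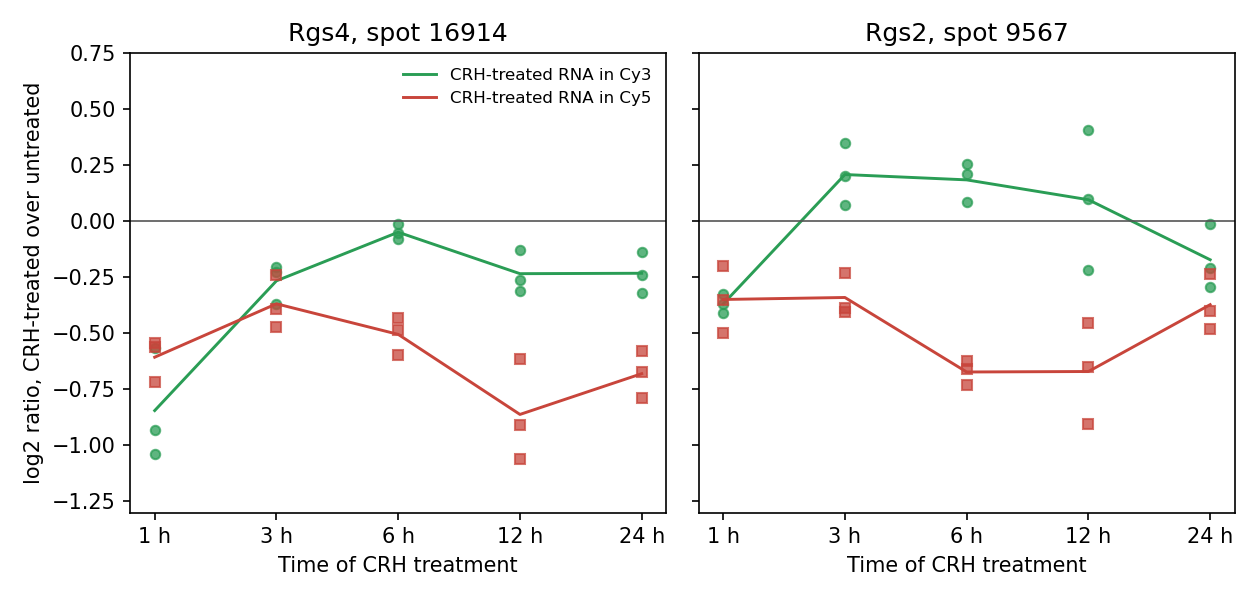
Ratio (log2, CRH-treated/untreated) for Rgs4 (left) and for Rgs2 spot 9567 (right) by hours of treatment, with points for single arrays and lines through the means of 3 arrays with CRH-treated RNA in Cy3 (green) or Cy5 (red). For Rgs4 both lines stay below 0 and cross between 1 and 3 h, while for Rgs2 the green line lies above 0 from 3 to 12 h.

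The spot of Rgs4 gave a clear signal. Its scanner intensity ranged from 702 to 10788 in Cy3 and from 754 to 13683 in Cy5, with medians of 2877 and 2963, and no channel reached saturation. The median of the 1170 empty spots was between 186 and 376 in Cy3 and between 81.2 and 163.7 in Cy5, and Rgs4 was at least 2.85-fold above it in every channel. Around the spot the background was at most 41.5. On the normalised log2 intensity scale the untreated RNA gave 11.41 ± 0.73, 11.76 ± 0.67, 11.09 ± 0.48, 11.88 ± 0.81 and 12.43 ± 0.28 (SD, n = 6) in order of time. The CRH-treated RNA gave 10.68 ± 0.89, 11.44 ± 0.66, 10.81 ± 0.44, 11.33 ± 0.54 and 11.97 ± 0.27. The arrays of a time point spread more widely in level than in ratio, and the levels of untreated and CRH-treated RNA overlapped at every time point. The difference is seen within each array.

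**Figure D4:**
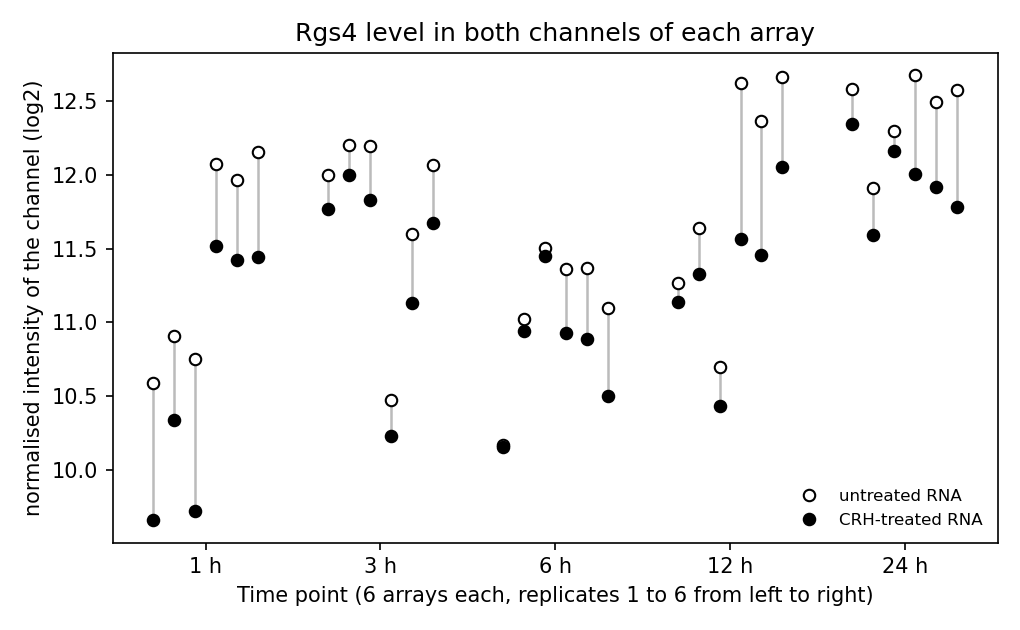
Normalised log2 intensity of the Rgs4 spot in the untreated channel (open circles) and the CRH-treated channel (filled circles) of each array, with a grey line joining the channels of 1 array and replicates 1 to 6 from left to right at each time point. The filled circle lies visibly below the open one on each array except on 6 h replicate 1, where they coincide (ratio -0.01), and the widest gap is that of 12 h replicate 4 (ratio -1.06).

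Before normalisation Rgs4 had a lower intensity in the CRH-treated channel on 26 arrays and a higher one on 4, all with the CRH-treated RNA in Cy5. These were the 3 Cy5 arrays of 3 h and replicate 4 of 6 h, on which the median raw ratio of all spots was also above 0, up to 0.94 on 3 h replicate 4. Relative to the median of its own array the raw ratio of Rgs4 was lower on 29 of 30. The log2 ratios deposited by the authors for the same spot had a mean of -0.54 and were below 0 on 29 of 30 arrays, with 0.0013 as the highest, and correlated with those used here at r = 0.98 across the 30 arrays. The 18 measured spots within 2 rows and columns of Rgs4 had means between -0.06 and 0.08, and the other 385 measured spots of its print-tip block between -0.15 and 0.21.

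The second spot named Rgs4, spot 18914, lay above the intensity limit in both channels on 1 array, in Cy3 on 8 and in Cy5 on 2. Its median intensity was 209 in Cy3 and 83.7 in Cy5, and it exceeded the median of the empty spots on 10 and 8 arrays. With the limit lifted its mean log2 ratio was -0.15, from intensities like those of empty spots. It provides no second measurement of Rgs4, so the ratios above rest on 1 spot.

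Another 16 spots had names that begin with the same words or, for Rgs7 and Rgs10, with a variant spelling of them. Of these 6 passed the intensity limit: 2 of Rgs2 and 1 each of Rgs1, Rgs5, Rgs11 and Rgs19. Their means over the time points ranged from -0.25 to 0.04, with a median of -0.01, which was also that of all spots. By limma none of the 6 passed an adjusted p of 0.05, and 1 had an unadjusted p under 0.05. Over all spots other than Rgs4, 0.0487% passed the adjusted test, all of them higher and 0% lower, and 5.38% the unadjusted one.

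Rgs2, which acts mainly on Gq and is induced early in many cell types, gave different results at its spots. Spot 9567 had a mean log2 ratio of -0.25 with a standard error of 0.06 (adjusted p = 0.387, limma over 5 time points) and was below 0 on 22 of 30 arrays. At 1 h replicates 1 to 6 gave -0.33, -0.37, -0.41, -0.20, -0.35 and -0.50. At 24 h they gave -0.30, -0.21, -0.01, -0.24, -0.48 and -0.40, so at these times all 6 arrays lay below 0. No share over all spots is given for this, so it is a description and no measure of likeness to Rgs4. At 3, 6 and 12 h the Cy3 orientation had means of 0.21, 0.18 and 0.10 and the Cy5 orientation -0.34, -0.67 and -0.67. Its interaction of time and dye orientation had p = 0.000371 (n = 30 arrays, adjusted p = 0.00974). Spot 451 was saturated in 40 of 60 channels, so its mean of -0.04 says little about a change. Spot 14033, also Rgs2, was above the limit on 27 arrays and was not used. With the limit lifted its mean log2 ratio was 0.18, opposite in sign to that of spot 9567.

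Rgs1 had a mean of 0.35 ± 0.54 at 1 h and -0.37 ± 0.69 at 24 h (SD, n = 6), with arrays on both sides of 0 at both times. Rgs5, the neighbour of Rgs4 on the chromosome, ranged from -0.10 to 0.15 over the time points, Rgs11 from -0.17 to 0.17 and Rgs19, which acts on Gi/o, from -0.06 to 0.11. A change over time at p under 0.01 was found in none of the 6 spots and in 9.86% of all spots. The spots of Rgs7, Rgs10, Rgs12, Rgs14 and Rgs16, a further spot of Rgs5 and one named for an RGS19-interacting protein fell below the limit on 2 or more arrays and gave no ratio.

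**Figure D5:**
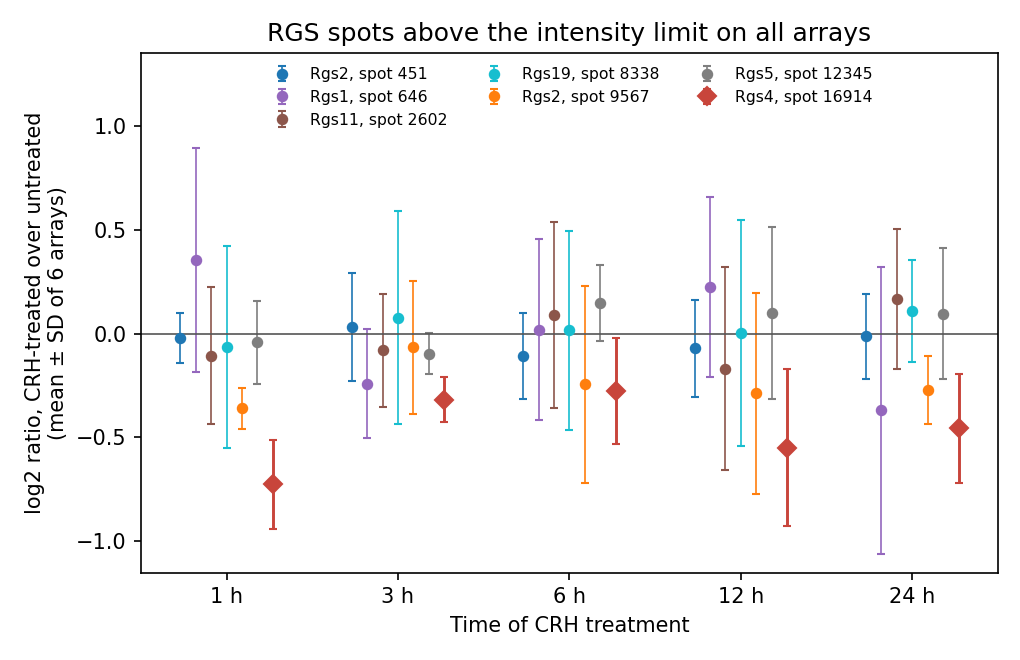
Mean ratio (log2, CRH-treated/untreated) ± SD of 6 arrays by hours of treatment for the 7 RGS spots above the intensity limit on all arrays. Rgs4 (red diamonds) lies between -0.73 and -0.28, and the other spots between -0.37 and 0.35.

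The spot most like Rgs4 in value, of 5912 spots with a gene name, was Rgs2 spot 9567, with a root mean square difference of 0.32 over the 30 arrays and r = 0.62. It was followed by spots of Sox2 (0.37), of a Bcl2-like gene (0.39), of histone H1.0 (0.39) and of Apobec2 (0.39). By correlation alone, after each dye orientation had been centred, the nearest were spots of a signal peptidase complex subunit (r = 0.78), thymine DNA glycosylase (r = 0.78), the coatomer subunit zeta 1 (r = 0.77), synaptic glycoprotein 2 (r = 0.76) and capping protein alpha 1 (r = 0.76). Their means over time lay between -0.06 and 0.11, so they followed Rgs4 from array to array without sharing its low mean. The arrays of a time point share extracts and mostly a day of quantification, and these correlations are descriptions.

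The other genes of the pathway in which RGS4 works were taken from chosen lists of G proteins, receptors, cyclases, kinases and their regulators. Of these, 94 spots of 61 genes passed the intensity limit, with means from -0.16 to 0.26 and a median of -0.01. In the limma test across time points 0 of them passed an adjusted p of 0.05, where 0.0487% of all spots did, and 4 or 4.26% had an unadjusted p under 0.05, beside 5.38% of all spots. None met the size rule at any time point. A change over time was called in 9 of them or 9.57%, beside 9.86% of all spots. These shares fell to 2.13% and 3.18% with the day of quantification as a block, and to 3.19% and 3.38% with time taken as a single number. With the day block only 3 against 6 h and 12 against 24 h are tested, which is a narrower question.

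Among G proteins, 12 spots of α subunits and 16 of β and γ subunits were measured. Gnas, which encodes the α subunit that couples CRHR1 to adenylyl cyclase, had a mean of -0.08 with a standard error of 0.06 (adjusted p = 0.952), and Gnai2, an inhibitory α subunit on which RGS4 can act, -0.08 with 0.07 (adjusted p = 0.952). The ratio of Gnas also depended on the dye, with an interaction of time and dye orientation at p = 1.3e-05 (linear model, n = 30 arrays). No spot was matched by name to Gnaq, Avpr1b or Arrb1. Gnb5, the β subunit that pairs with RGS proteins of another subfamily, had -0.16 at 1 of its 2 spots (adjusted p = 0.908), with an unadjusted p under 0.05, and its second spot was at 0.00.

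The receptor Crhr1 had a mean of -0.02 with a standard error of 0.06 (adjusted p = 0.991). Its untreated level was low, at percentile 7.0 of the measured spots, near Gh at 4.5 and Gfap at 3.9. The Crhr1 mean therefore says little about a change in receptor RNA. Downstream of the receptor, Prkaca, the catalytic subunit of protein kinase A, had -0.06 with 0.05 (adjusted p = 0.952). The other spots with an unadjusted p under 0.05, named after their values were seen, were both spots of Pde4b, a cAMP phosphodiesterase, at 0.16 and 0.26 (adjusted p = 0.908 and 0.471), and 1 of 4 spots of Prkar1a, a regulatory subunit of protein kinase A, at 0.20 (adjusted p = 0.742).

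Of the N-degron branch that removes RGS4 protein, 8 spots of 4 genes were measured. Ate1, the arginyl transferase, had 0.05 and -0.02 at its 2 measured spots, and the ubiquitin ligase Ubr1 0.04, -0.05 and 0.00 at 3 spots. A further spot of Ate1 was above the limit on 29 arrays and was not used. The arrays measure RNA and give no value for RGS4 protein.

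Of the corticotrope markers 8 of 12 spots passed the intensity limit, as did 63% of all gene spots, and they stood for 6 genes, Pomc, Tbx19, Crhr1, Neurod1, Cpe and Scg2. Both spots of Neurod1 were lower by the size rule at 1 time point, with means of -0.73 at 3 h and -0.61 at 24 h, and no other marker spot of the list met it. Over the 5 time points these spots had means of -0.40 and -0.31 and did not pass the limma test (adjusted p = 0.523 and 0.742). Their means were 0.27 and 0.21 at 1 h and below 0 at the later times. In the linear models (n = 30 arrays) their change over time had p = 4.7e-06 and 6.6e-05, and their interaction of time and dye orientation p = 0.00634 and 0.00139. These p-values rest on repeated hybridisation of the same extracts. The limit is low, and 1 spot each of Gh and Gfap and 4 spots of fibroblast collagens passed as well, so passing it does not show expression. The array was printed in 48 blocks of 504 spots. Median channel intensities ranged from 458 to 2038, and within a time point the SD of a spot had a median of 0.27 to 0.35. The number of arrays and the 1 pair of extracts behind those of each time point limit the precision.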

How the data were processed

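The authors deposited, per array, the intensity and local background of each spot in Cy3 and Cy5 as read by QuantArray with fixed circles, and log2 ratios for 12593 spots in a table that the authors had made by removing the lowest 10% of intensities and fitting a loess curve per print-tip block. Channel 1 held Cy5 in 1 file, and its extra columns from another slide were not used.

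The ratios used here were computed anew from the intensities without background subtraction. Spots had to lie above the 10th percentile of both channels on all 30 arrays, which kept 14375 of 22830 gene spots, and log2 ratios were corrected by loess per block (span 0.75, symmetric family, 4 iterations) and turned to CRH-treated over untreated. Their correlation with the deposited values across spots was 0.979 to 0.992. Levels per channel were scaled by Aquantile. No pair of the arrays was identical.

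The CRH effect was tested with limma on the 5 time-point means, at an adjusted p under 0.05. Interaction and time were tested by linear models over 30 arrays at p under 0.01, with the models of the study, which removed spots with an interaction before testing time, while here all spots were kept. On simulated data, CRH effects of 0.5 and 1 were recovered in 93% and 100% of 100 spots, and interactions of 0.5 and 1 in 17% and 60%. The 100 spots were planted together among 14375, which eases the adjusted limit of the CRH test, while few spots passed it in the data. The shares for the CRH effect may therefore be higher than those that hold for the data. Gene names are those of the array and were matched by exact name. Named were every RGS spot, the closest spots, pathway members past the tests, and Crhr1, Avpr1b, Gnas, Gnai2, Gnaq, Prkaca, Arrb1, Ate1 and Ubr1 where measured. Rgs4, the lists and the motifs were chosen with earlier results of these data known. Sequences are from RefSeq (GRCm38.p6). Tools were R 4.3.3, limma 3.58.1, Python 3.11.15 and matplotlib 3.10.9. Alternatives were other background, filter, loess and variance settings, the deposited ratios, single dye orientations, and leaving out a time point or replicate.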

Additional observations from a re-analysis of the deposited data

Results flagged for a closer look

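The ratio of Rgs4 differed between dye orientations in a way that changed with time. The test of the interaction of time and dye orientation gave p = 0.000135 (adjusted p = 0.00546, linear model, n = 30 arrays). The Cy3 mean less the Cy5 mean was -0.24, 0.10, 0.46, 0.63 and 0.45 in order of time. The ratio was below 0 on all 15 arrays of either orientation. Among 35 sets of 6 arrays (Rgs4 and the 6 other RGS spots at 5 time points), 0 held an array set apart from the others by Dixon's test. The test marks about 5% of sets by chance where all values share 1 distribution. These sets pool both dye orientations, and a gap between orientations widens the range that the test divides by. It can then hardly mark an array, so the count does not show that the arrays agree.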

How the results depend on the processing

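The mean of Rgs4 over time and at each time point kept its sign and stayed within 1 SD under every alternative tried. Since all 30 ratios were below 0, leaving out arrays could not change the sign. The SD of a time point takes in the difference between dye orientations, which was wide at 6, 12 and 24 h. The mean of Rgs4 over time ranged from -0.60 (CRH-treated RNA in Cy5 alone) to -0.33 (in Cy3 alone). The interaction of Rgs4 had p from 4.7e-05 to 0.00613 (n = 25 arrays) when 1 replicate number was left out, and p = 0.0355 (n = 30 arrays) with time as a single number, the highest of all alternatives. Counts over all spots moved more. Rgs4 itself, chosen on this contrast, is left out of the counts of the CRH effect. Spots with a lower effect in limma (0 of 14374, where 773 had an unadjusted p under 0.05 in either direction) were 8 without 1 h, 1868 in Cy3 alone and 1941 in Cy5 alone. Spots with a higher effect (7) were 0 with the percentile subtracted, with dim spots kept, with the robust prior and without 12 h, 4 without 3 h or 6 h, 30 without 1 h, 1408 in Cy3 alone, 2320 in Cy5 alone and 4 to 9 without 1 replicate number. Spots changing over time (1418) were 457 with day as a block, 486 with time as a single number and 910 to 1282 without 1 replicate number, with 910 lacking replicate 2 and 943 lacking replicate 1. The day block leaves only 3 against 6 h and 12 against 24 h to be tested, as no other time points share a day. The count of 457 therefore answers a narrower question. The interaction was called in 1088 spots, not 2126, with time as a single number. In a single dye orientation Rgs19 passed the test in both with opposite signs, at 0.34 in Cy3 and -0.28 in Cy5, and Rgs2 spot 9567 passed in Cy5 at -0.48 and was at -0.01 in Cy3. The causes were not tested.

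Replicate numbers did not pair the arrays: arrays sharing a number correlated at r from -0.03 to 0.05 in 60 pairs. With a replicate block 1241 spots changed over time. All values rest on 1 Rgs4 spot and 1 pair of extracts per time point, and day and time point cannot be told apart for most of the course.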
